A study of Mus musculus with 80 samples.

Results

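The complement genes described here were the 3 chains of the recognition molecule C1q (C1qa, C1qb and C1qc), the components C3 and C4b, and the anaphylatoxin receptors C3ar1 and C5ar1. They were chosen by gene symbol, and all 7 were listed in both deposited expression tables, among 15919 genes in the sort comparison and 16000 genes in the cell preparation comparison. All samples came from brains of Cx3cr1(Jung)-cre/Ert2+;NuTRAP+ mice of both sexes that had been injected with tamoxifen (Tam) at 100 mg/kg from about 3 months of age, after which Cx3cr1+ cells carried eGFP on their ribosomes. Translating ribosome affinity purification (TRAP) pulled these ribosomes down with an antibody to GFP, and Input was the RNA of the same homogenate before the pull-down. The sort comparison held 48 libraries, which were the Input and TRAP fractions of whole tissue homogenate (Tissue, 4 mice), of the dissociated but unsorted cell suspension (Cell, 4 mice), and of cells isolated by CD11b magnetic beads (autoMACS, 4 mice), by beads followed by a cartridge sorter (autoMACS-to-Tyto, 3 mice), by the cartridge sorter alone (Tyto, 5 mice) or by a droplet sorter (FACSAria, 4 mice). The cell preparation comparison held 32 libraries from 4 mice per group, with Input and TRAP of Tissue, of cell suspensions made at 37°C with an enzyme and without (Cell-no-inhibitor) or with (Cell-with-inhibitor) transcription and translation inhibitors, and of a suspension made with a Dounce homogenizer at 4°C (Dounce). The inhibitors were actinomycin D, triptolide and anisomycin.

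No wild-type or untreated mice entered these comparisons, so every group shared the 2 alleles and the Tam treatment. The Cx3cr1 promoter is active in macrophages at the borders of the brain and in some blood cells as well as in microglia. All 4 sorts selected on CD11b, the product of Itgam and itself a subunit of complement receptor 3. The beads used CD11b alone, whereas the authors gated the cartridge and droplet sorters on CD11b, CD45 and eGFP, the tag that TRAP pulls down. The authors took brains only after an interval from Tam by which, they reported, eGFP in circulating cells had fallen to the cre-negative level. Several groups shared mice. Tissue and Cell of the sort comparison and Tissue of the cell preparation comparison came from the same 4 mice, the suspensions with and without inhibitors came from 4 other mice, autoMACS and autoMACS-to-Tyto shared 3 mice, and Tyto and FACSAria shared 3 mice. The Dounce libraries came from mice that were in no other group. Total counts per library ranged from 7129450 to 20168200 in the sort comparison and from 2471430 to 14650300 in the other, with Dounce-TRAP the shallowest. Levels are given as CPM, which are counts scaled to a common library size. The summed CPM of 24 microglial markers rose from 468 to 697 in Tissue-Input to between 9357 and 11184 in Tissue-TRAP, between 53056 and 57741 in Cell-TRAP, and 64171 to 74412 after sorting, while the summed CPM of 10 neuronal markers in Tissue-TRAP (6549 to 7237) was close to that in Tissue-Input (8267 to 8501).

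Complement is a cascade of plasma and tissue proteins that tags targets for uptake. In the classical pathway C1q, built from equal numbers of A, B and C chains, binds a target and starts cleavage of C4 and C2, which leads to cleavage of C3. The C3 fragments left on the target are read by complement receptor 3 on phagocytes, and the released fragments C3a and C5a signal through the receptors encoded by C3ar1 and C5ar1. In brain, C1q is made mainly by microglia, C4 largely by astrocytes and other glia, and the pathway is known for marking synapses for removal by microglia.

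The genes lie on 4 chromosomes of the mm10 genome, all on the minus strand. C1qa (chr4:136895916-136898844), C1qc (chr4:136889802-136892914) and C1qb (chr4:136880145-136886177) sit side by side. C3 (chr17:57203973-57228136) and C4b (chr17:34728381-34743897) share a chromosome, C3ar1 is at chr6:122847140-122856157 and C5ar1 at chr7:16246743-16259540. RefSeq promoter windows on GRCm38.p6 were at hand for 5 of the 7 genes, and the 250 bases before the start are printed for C1qb, C1qc and C3ar1, since these are 2 chains that share an expression pattern and the receptor with the larger step from tissue to suspension in TRAP. The windows are chr4:136886201-136886450, chr4:136892915-136893164 and chr6:122856158-122856407, each read 5′ to 3′ on the minus strand, with motif matches in capitals.
C1qb: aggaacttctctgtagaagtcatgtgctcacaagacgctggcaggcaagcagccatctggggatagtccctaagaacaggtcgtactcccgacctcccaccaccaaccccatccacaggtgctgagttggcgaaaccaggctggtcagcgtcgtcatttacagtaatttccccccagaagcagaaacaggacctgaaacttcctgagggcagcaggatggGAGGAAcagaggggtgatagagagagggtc
C1qc: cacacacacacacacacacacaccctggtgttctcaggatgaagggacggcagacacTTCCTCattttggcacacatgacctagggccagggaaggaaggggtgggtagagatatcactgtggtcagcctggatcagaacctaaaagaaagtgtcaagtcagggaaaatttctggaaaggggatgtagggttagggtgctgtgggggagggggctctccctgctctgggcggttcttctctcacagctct
C3ar1: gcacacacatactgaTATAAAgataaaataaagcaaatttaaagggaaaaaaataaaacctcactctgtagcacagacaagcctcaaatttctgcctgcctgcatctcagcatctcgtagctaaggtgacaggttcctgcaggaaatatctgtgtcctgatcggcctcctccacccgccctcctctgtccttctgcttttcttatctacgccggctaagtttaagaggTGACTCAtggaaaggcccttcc
The motifs searched, on both strands, were GAGGAA (a core bound by the myeloid factor PU.1), TGANTCA (bound by AP-1), CCAAT (the CCAAT box, bound by NF-Y), TATAAA (the TATA box of core promoters) and the interferon-stimulated response element core (bound by interferon regulatory factors). GAGGAA began at -30 in C1qb and was matched on the opposite strand at -193 in C1qc, where the printed strand reads TTCCTC, and 23.3% of 32851 mouse promoters of this length held it. TGANTCA was matched at -22 in C3ar1, against 6.75% of all promoters, and TATAAA at -235, against 12.4%. The C5ar1 window held CCAAT on the opposite strand at -158 (33.8% of promoters), and the C3 window held none of the 5 motifs. The interferon-stimulated response element core, in 2.98% of promoters, was matched in none of the 5 windows.

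To see where the complement transcripts were found, their levels were first compared across the 12 groups of the sort comparison, per kilobase of exon. The C1q chains were the most abundant in every group. In Cell-TRAP the mean level per kilobase was 3749 CPM for C1qa, 3602 for C1qb and 3008 for C1qc, followed by C3ar1 at 69.2, C5ar1 at 66.4, C4b at 32.7 and C3 at 2.12. In Tissue-Input the order below the C1q chains was different, with C4b at 5.43 CPM per kilobase above C3 at 0.488, C3ar1 at 0.420 and C5ar1 at 0.412. Outside C1q, C4b was thus the highest of the genes in whole brain RNA, while the receptors were above it in Cell-TRAP and in sorted cells.

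**Figure D1:**
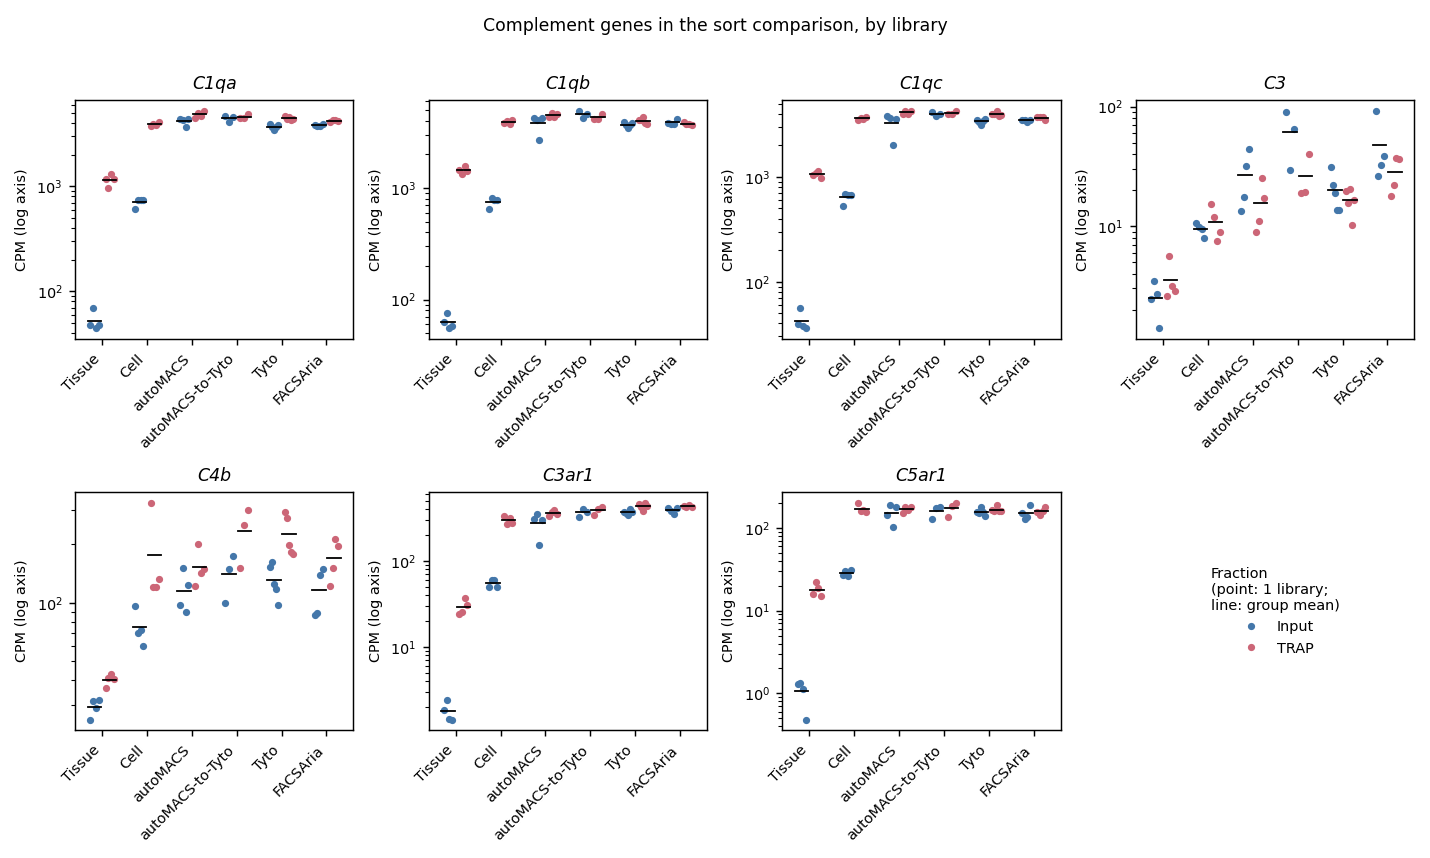
CPM (log axis) of the 7 complement genes in every library of the sort comparison, with Input and TRAP as separate points and the group means as bars across the points. The C1q chains, C3ar1 and C5ar1 stepped up in Input from Tissue to Cell to the 4 sorts, whereas in TRAP the step lay between Tissue and Cell.

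The first comparison asked what making a cell suspension did to complement transcripts. In Input, C1qa, the A chain of C1q, was at 47.4, 69.6, 44.5 and 47.3 CPM in the 4 Tissue libraries and at 604, 740, 739 and 745 in the 4 Cell libraries, and these values did not overlap. How many of all genes separated in this way was not counted, for this or any later contrast. C3ar1, the receptor for C3a, was at 1.87, 2.43, 1.49 and 1.44 CPM in Tissue-Input and at 50.1, 60.4, 60.3 and 50.2 in Cell-Input. Both genes were therefore more than 10 times as high in the suspension as in the homogenate. The log2 fold changes ± SE were 3.76 ± 0.12 for C1qa, 3.58 ± 0.13 for C1qb, 3.92 ± 0.17 for C1qc, 4.93 ± 0.22 for C3ar1 and 4.75 ± 0.24 for C5ar1, and C3 (1.92 ± 0.46) and C4b (1.36 ± 0.21) rose less. All 7 genes were called higher at an edgeR quasi-likelihood FDR under 0.1 and a fold change over 2, the largest adjusted p being 0.00074 (C3), and 28.5% of 15750 tested genes were called higher in this contrast. The 24 microglial markers were all called higher too, with a median log2 fold change of 4.15. Where a share of cells changes, fewer cells of a type and less RNA per cell cannot be told apart in bulk samples. Scaled to the total of the microglial list in place of all genes, the same contrast gave negative values for C1qa, C1qb, C1qc, C3 and C4b (-0.34 to -2.88), and 0.69 for C3ar1 and 0.51 for C5ar1.

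TRAP enriches RNA on eGFP-tagged ribosomes, though Tissue-TRAP kept neuronal transcripts, and here the suspension was again compared with tissue. C1qa was at 1165, 963, 1314 and 1182 CPM in Tissue-TRAP and at 3759, 3912, 3811 and 4115 in Cell-TRAP. C3ar1 was at 23.9, 25.4, 37.5 and 30.5 CPM in Tissue-TRAP and at 328, 270, 317 and 277 in Cell-TRAP. C5ar1, the receptor for C5a, was at 15.79, 22.03, 19.05 and 14.96 CPM in Tissue-TRAP and at 203, 162, 163 and 155 in Cell-TRAP. For each of these genes the Cell-TRAP libraries lay above all Tissue-TRAP libraries, a separation whose share among all genes was not counted. The receptors moved further than C1q. The log2 fold changes were 1.75 ± 0.07 for C1qa, 1.44 ± 0.06 for C1qb, 1.77 ± 0.05 for C1qc, 3.34 ± 0.12 for C3ar1 and 3.25 ± 0.13 for C5ar1, which are fold changes of 3.37, 2.72, 3.41, 10.1 and 9.50. C3 (1.62 ± 0.37, FDR 0.000314) and C4b (2.12 ± 0.28, FDR 2.29e-07) were called higher as well, so that again 7 of 7 passed, against 25.1% of 14953 genes called higher by edgeR. The microglial markers had a median of 2.50 (range 0.81 to 3.85) with 22 of 24 called higher, which places the C1q chains below and the receptors above the median of the list.

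The different steps of C1q and of the receptors were followed by expressing each gene per 1000 counts of the microglial list in the same library. C1qa stood at 113 ± 6.64 (SD, n = 4) in Tissue-TRAP and 69.9 ± 2.65 in Cell-TRAP, and C1qb at 141 ± 3.86 and 70.3 ± 3.48. C3ar1 went the other way, from 2.85 ± 0.413 in Tissue-TRAP to 5.35 ± 0.626 in Cell-TRAP, and C5ar1 from 1.77 ± 0.404 to 3.07 ± 0.509. On this scale the C1q chains were lower and the receptors higher in the suspension, and neither set of libraries overlapped, though the share of all genes that separated so was not counted. With the microglial list as the library size in edgeR, the log2 differences were -0.69 for C1qa (FDR 1.4e-10), -1.004 for C1qb, -0.68 for C1qc, 0.91 for C3ar1 (FDR 3.88e-09) and 0.80 for C5ar1 (FDR 1.98e-05), and those of C3 (-0.83) and C4b (-0.30) were also negative. The direction given for C1q, C3 and C4b between suspension and tissue therefore turned with the scale, while that of C3ar1 and C5ar1 did not. Tissue-TRAP also held the neuronal transcripts noted above, and their part in these differences was not tested.

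**Figure D2:**
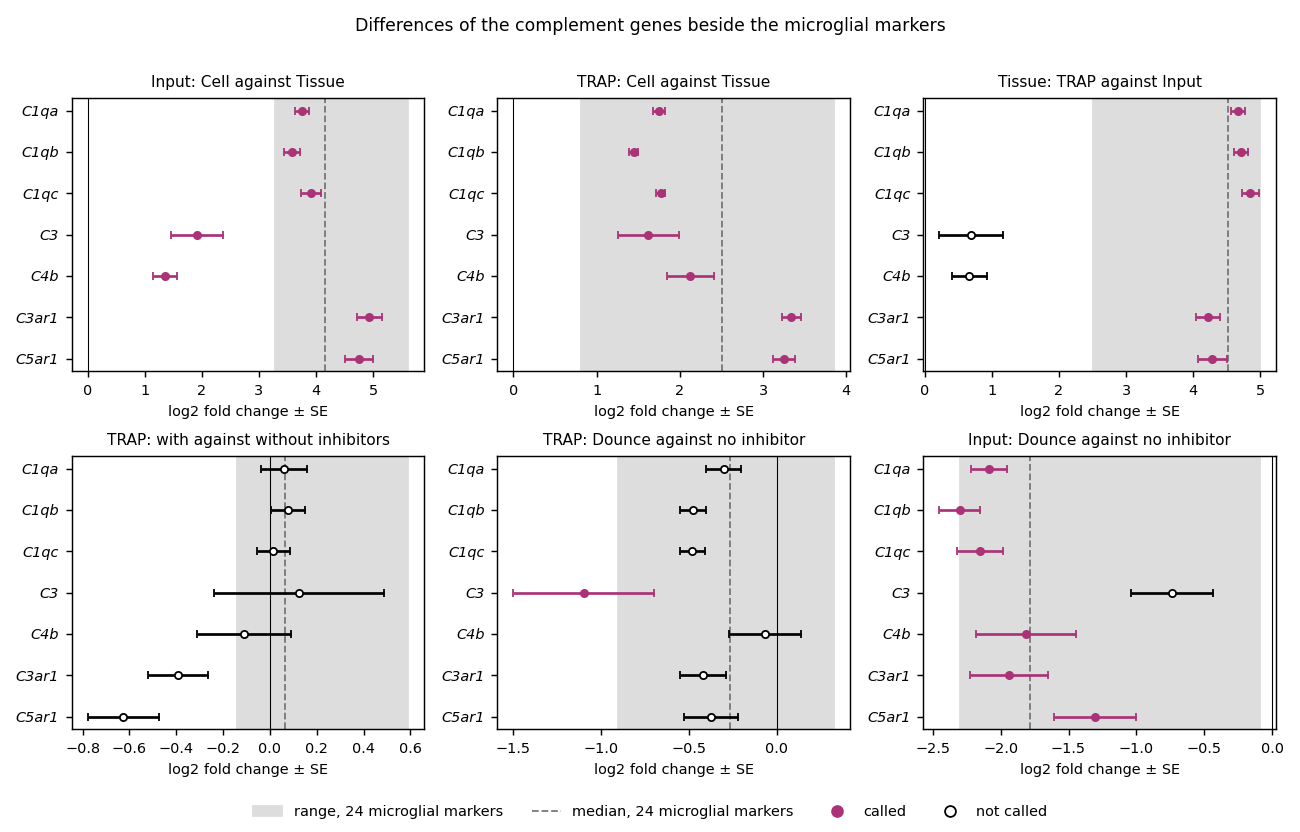
Log2 fold changes of the 7 genes (points, with SE as bars) in 6 comparisons, filled where called, with the range (grey) and median (dashed line) of the 24 microglial markers. The upper panels are from the sort comparison and the lower from the cell preparation comparison. The receptors C3ar1 and C5ar1 exceeded the C1q chains in suspension against tissue (3.34 and 3.25 against 1.44 to 1.77 in TRAP of the sort comparison), and with inhibitors against without all 7 TRAP values lay between -0.63 and 0.12. Against tissue, the values of C1q, C3 and C4b turn negative where the microglial list sets the library size.

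Sorting the suspension raised the genes further in Input. C1qa lay between 3471 and 4684 CPM in the 16 sorted Input libraries, and C3ar1 between 151 and 414. Against Cell-Input, the mean of the 4 sorts was higher by 2.51 ± 0.11 on the log2 scale for C1qa, 2.40 ± 0.11 for C1qb, 2.46 ± 0.14 for C1qc, 2.65 ± 0.16 for C3ar1, 2.44 ± 0.17 for C5ar1 and 1.89 ± 0.36 for C3. These 6 genes were called higher by edgeR, against 17.1% of 15750 genes, and the median of the microglial list was 2.67 with 24 of 24 called. C4b had a log2 difference of 0.75 ± 0.17 (FDR 0.000434), a fold of 1.68 that stayed under the threshold of 2. Scaled to the microglial list, 6 of the 7 values were negative (-0.08 to -1.88) and that of C3ar1 was 0.03. Over the same step the summed astrocyte markers went from between 8439 and 11292 CPM in Cell-Input to between 156 and 440 in sorted Input.

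In TRAP, the sorts added little to the suspension. The mean of the 4 sorts differed from Cell-TRAP by 0.21 ± 0.06 for C1qa, 0.07 ± 0.05 for C1qb, 0.13 ± 0.04 for C1qc, 0.43 ± 0.08 for C3ar1, -0.03 ± 0.09 for C5ar1 and 0.14 ± 0.21 for C4b on the log2 scale, and C3 had the largest value, 0.95 ± 0.28 (FDR 0.00561), a fold of 1.93, which passed without mouse 946 of Cell (1.17). None of the 7 was called by edgeR, although 4 had an FDR under 0.1, whereas 24.4% of 14953 genes were called in either direction. The interval of the C5ar1 difference ran from -0.22 to 0.15 (95%). Scaled to the microglial list, the values of the C1q chains (-0.11 to -0.25), of C4b (-0.21) and of C5ar1 (-0.36) were negative. Against Tissue-TRAP, the mean of the 4 sorts was higher by 1.96 (C1qa), 1.51 (C1qb), 1.90 (C1qc), 2.56 (C3), 3.77 (C3ar1), 3.21 (C5ar1) and 2.26 (C4b), with 7 of 7 called and 25.9% of all genes called higher. With the microglial list as library size, this contrast gave negative values for C1q, C3 and C4b (-0.21 to -1.25), 1.02 for C3ar1 and 0.44 for C5ar1.

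The 4 sorts were then compared with each other. In Input, 1 of the 7 genes, C3, passed the F test across sorts (FDR 0.0261), with a largest difference between sorts of 1.63 on the log2 scale, against 7.42% of all genes, and the other 6 had FDRs from 0.165 to 0.985. Between autoMACS-to-Tyto and autoMACS 1.96% of genes were called in Input, and between FACSAria and Tyto 0.476%, with none of the 7 genes among them. In TRAP none of the 7 passed the F test (4.17% of genes did), with C1qb at an FDR of 0.00868 but a range of only 0.26 between sorts, and C3 at an FDR of 0.0815 and a fold of 1.81. None of the 7 was called between autoMACS-to-Tyto and autoMACS (2.37% of genes) or between FACSAria and Tyto (0.0936% of genes) in TRAP either, where log2 differences other than those of C3 (0.73 and 0.79) and C4b (0.61 and -0.40) stayed between -0.13 and 0.11. With the 3 shared mice as a replicate block, C3 was called between autoMACS-to-Tyto and autoMACS in Input (1.35, edgeR FDR 0.0517) and in TRAP (1.05, edgeR FDR 0.00498). At an unadjusted p under 0.05, C3 was the one gene that differed in both pairs and in both fractions.

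How far TRAP enriched each transcript was asked within each preparation. In Tissue, the log2 difference of TRAP over Input was 4.67 ± 0.10 for C1qa, 4.71 ± 0.10 for C1qb, 4.85 ± 0.12 for C1qc, 4.22 ± 0.18 for C3ar1 and 4.29 ± 0.21 for C5ar1, and these 5 genes were called, against 9.23% of 15825 genes called higher by edgeR. C4b stood apart. It was at 25.1, 31.3, 28.8 and 31.5 CPM in Tissue-Input and at 36.4, 41.1, 43.2 and 40.5 in Tissue-TRAP, with a log2 difference of 0.67 ± 0.26 (FDR 0.0537). C3, at 2.46, 3.46, 2.72 and 1.40 CPM in Tissue-Input and 2.58, 5.58, 3.14 and 2.85 in Tissue-TRAP, did not differ detectably (0.69 ± 0.47, FDR 0.323). The genes thus fell into 5 that followed the microglial list, whose median was 4.52, and a pair, C3 and C4b, with values closer to those of genes in general (median 0.03). With the microglial list as library size the values were 0.21 for C1qa, 0.24 for C1qb and 0.39 for C1qc, and turned negative for C3ar1 (-0.24), C5ar1 (-0.16), C3 (-3.74) and C4b (-3.82).

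In Cell, the enrichment was smaller for the 5 microglial genes, from 2.66 ± 0.09 (C1qb) to 2.86 ± 0.16 (C5ar1), and C4b was now called as well (1.51 ± 0.26, FDR 1.94e-06), which made 6 of 7 against 16.8% of all genes. The C4b call was lost with limma (0.90), and scaled to the microglial list the value was -1.24. In the sorted cells no gene of the 7 was called between TRAP and Input (18.9% of genes were, in either direction), with values from 0.13 (C1qb) to 0.70 (C4b), and C3 at -0.67 ± 0.19 (FDR 0.00291). The difference between the enrichment in Cell and that in Tissue, tested as an interaction, was -1.92 ± 0.13 for C1qa, -2.05 ± 0.12 for C1qb, -2.06 ± 0.15 for C1qc, -1.51 ± 0.22 for C3ar1 and -1.42 ± 0.27 for C5ar1. These 5 were called lower, against 29.5% of genes, and the median of the microglial list was -1.72. For C4b the interaction was 0.85 ± 0.37 (FDR 0.0455), under the threshold of 2-fold. None of the 5 was called when scaled to the microglial list, with values of -0.20 (C1qa), -0.31 (C1qb), -0.34 (C1qc), 0.22 (C3ar1) and 0.29 (C5ar1), and C4b (2.58) and C3 (1.48) were called higher. The share of all genes called on that scale is not given here.

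The cell preparation comparison asked whether these transcripts differed with inhibitors in the enzymatic digestion, or with a cold mechanical preparation in its place. The Dounce mice gave no other group, so mouse and preparation cannot be told apart in the Dounce contrasts. The step from Tissue to the enzymatic suspension was seen again, in libraries from other mice on the suspension side. In Input, 7 of 7 genes were called higher in Cell-no-inhibitor (25.6% of 15753 genes) and 7 of 7 in Cell-with-inhibitor (25.5%), from 1.37 (C3) to 5.32 (C5ar1) without and from 1.20 (C3) to 4.93 (C3ar1) with inhibitors. Without mouse 1362, C3 was no longer called with inhibitors (0.83). In TRAP, 7 of 7 were called higher without inhibitors (22.3% of 14723 genes) and 7 of 7 with them (21.6%). Without inhibitors the TRAP values were 1.71 (C1qa), 1.37 (C1qb), 1.75 (C1qc), 1.32 (C3), 3.37 (C3ar1), 2.70 (C5ar1) and 2.12 (C4b). Scaled to the microglial list, C1q, C3 and C4b took negative values here too (-0.21 to -0.99 without inhibitors), and C3ar1 stayed positive at 1.04, as did C5ar1 without (0.37) but not with inhibitors (-0.33).

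**Figure D3:**
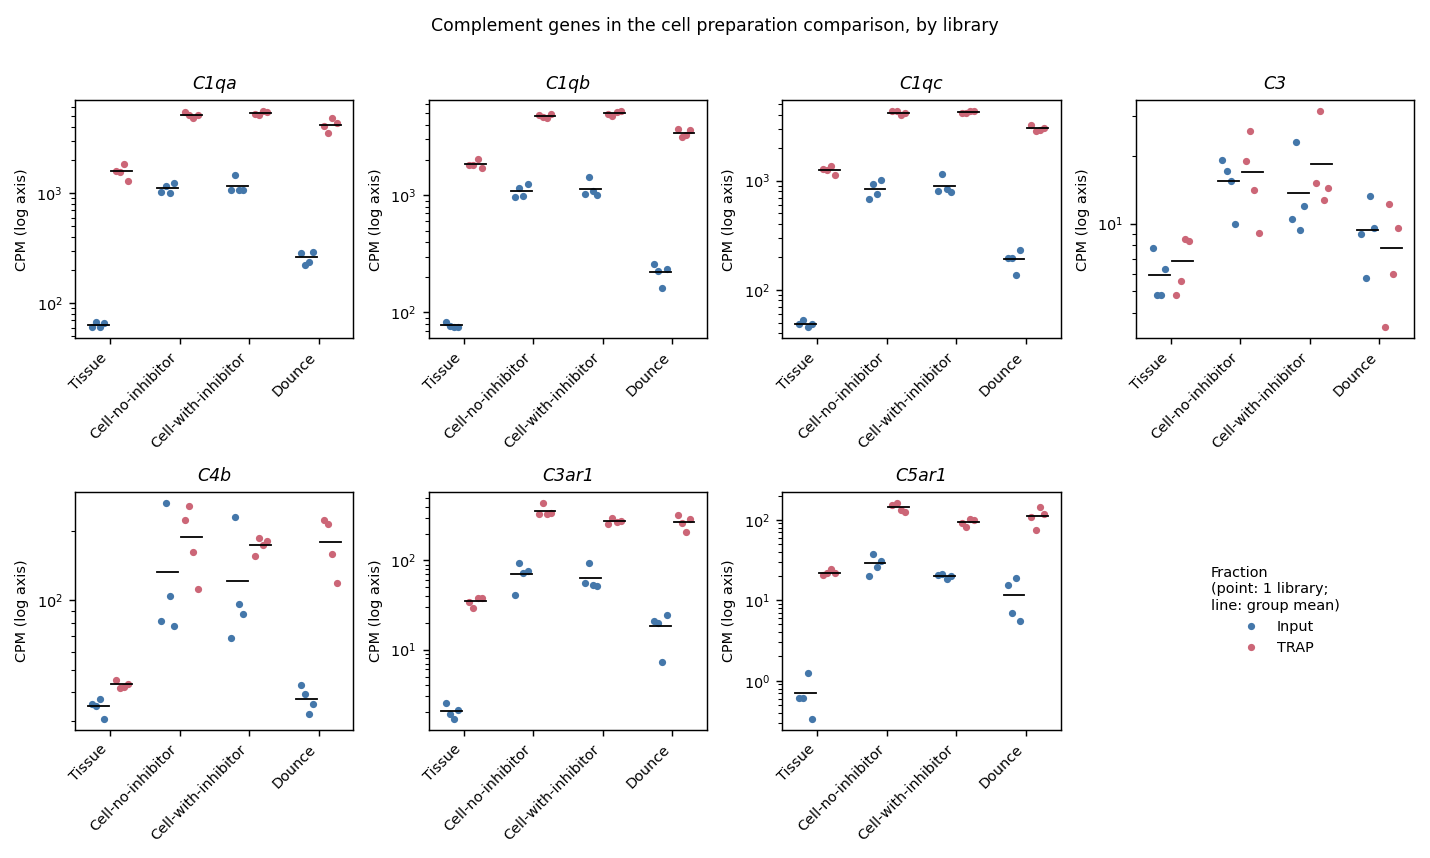
CPM (log axis) of the 7 genes in every library of the cell preparation comparison, Input and TRAP, with group means as bars. In TRAP, the 4 Cell-with-inhibitor libraries of C5ar1 (80.6 to 102 CPM) lie below the 4 Cell-no-inhibitor libraries (126 to 164), and the Dounce libraries of C3 (3.47 to 12.2) are near those of Tissue (4.82 to 8.52).

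With inhibitors against without, no complement gene was called, in Input (0.311% of genes called) or in TRAP (0.638%). In TRAP the receptor values of the 2 groups nevertheless lay apart, but the share of all genes that did so was not counted. C5ar1 was at 153, 164, 132 and 126 CPM without inhibitors and at 90.8, 80.6, 102 and 99.0 with them, so that the groups did not overlap. The log2 difference was -0.63 ± 0.15 (95% interval -0.95 to -0.31, FDR 0.0450), which is 0.648 of the level without inhibitors and short of the 2-fold threshold, and the FDR ranged from 0.00137 with mouse as a block to 0.161 over the alternative settings. C3ar1 was at 331, 445, 328 and 339 CPM without and at 253, 302, 272 and 273 with inhibitors, again without overlap, and its difference of -0.39 ± 0.13 did not pass (FDR 0.206). The FDR of C3ar1 ran from 0.00160 with mouse as a block to 0.569 without mouse 1362 of Cell-no-inhibitor (-0.27). For the C1q chains the intervals were narrow and held 0, from -0.15 to 0.27 for C1qa, from -0.07 to 0.23 for C1qb and from -0.13 to 0.16 for C1qc. They were wide for C3 (-0.64 to 0.88) and C4b (-0.54 to 0.31). Per 1000 counts of the microglial list, C5ar1 was at 2.24 ± 0.360 without and 1.38 ± 0.135 with inhibitors (n = 4 each), against 1.73 ± 0.0800 in Tissue-TRAP, and C3ar1 at 5.62 ± 1.10 and 4.08 ± 0.348, against 2.73 ± 0.163.

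The Dounce preparation gave a different picture in Input. There C1qa was at 289, 223, 235 and 295 CPM, above the 4 Tissue-Input libraries (60.5 to 67.0) and below the 4 Cell-no-inhibitor libraries (1005 to 1239). Against Tissue-Input, 5 of 7 genes were called higher (28.7% of genes), from 1.50 ± 0.15 (C1qb) to 4.01 ± 0.43 (C5ar1), while C3 (0.63 ± 0.32, FDR 0.0787) and C4b (0.12 ± 0.37, FDR 0.775) were not. Against Cell-no-inhibitor-Input, 6 of 7 were called lower (28.1% of genes), from -1.30 ± 0.30 (C5ar1) to -2.30 ± 0.15 (C1qb), where the median of the microglial list was -1.78, and C3 was the exception at -0.74 ± 0.30 (FDR 0.0313). Dounce-Input also held the highest summed blood leukocyte markers, 275 to 1768 CPM against at most 131 in the other Input groups of this comparison, and their part in the values of C3, C3ar1 and C5ar1, which blood cells also express, was not tested. Scaled to the microglial list, the C1q chains, C3 and C4b were negative against Tissue-Input (-0.73 to -2.65) and C3 (0.93) and C5ar1 (0.49) turned positive against Cell-no-inhibitor-Input. The authors reported the lowest RNA integrity in Dounce-Input and used a whole brain for it, but a hemisphere for the others. They also found coverage leaning more to the transcript end in Tissue and Dounce, in both fractions. The part of RNA quality in the Dounce values and chain ratios was not tested.

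In TRAP the Dounce preparation lay closer to the enzymatic one. C4b was at 223, 214, 159 and 119 CPM in Dounce-TRAP and at 222, 256, 162 and 112 in Cell-no-inhibitor-TRAP, which overlapped. Against Tissue-TRAP 5 of 7 genes were called higher (23.2% of genes), namely C1qa (1.40 ± 0.10), C1qc (1.27 ± 0.07), C3ar1 (2.95 ± 0.14), C5ar1 (2.33 ± 0.17) and C4b (2.05 ± 0.22), and C1qb missed the fold threshold at 0.89 ± 0.07. Scaled to the microglial list, C1q, C3 and C4b were negative in this contrast (-0.16 to -1.98). Against Cell-no-inhibitor-TRAP, 1 of 7 genes was called lower, against 8.02% of all genes. This was C3, at 3.47, 12.2, 5.97 and 9.53 CPM in Dounce and 18.997, 25.81, 14.03 and 9.097 without inhibitors, values that overlapped, with a log2 difference of -1.10 ± 0.40 (FDR 0.0277). It rested on 13 to 61 counts in the Dounce libraries, and the call was lost without mouse 1362 of the suspension (-0.82) or without mouse 179 (-0.85) or 181 (-0.997) of Dounce. The other 6 genes had values between -0.48 and -0.07.

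Enrichment by TRAP separated C4b from C3 in the Dounce preparation. In Tissue, 5 of 7 genes were called higher in TRAP than in Input (8.21% of 15894 genes), in Cell-no-inhibitor 5 (10.6%), in Cell-with-inhibitor 5 (9.71%) and in Dounce 6 (20.8%), the additional gene being C4b, which was also called with inhibitors once mouse 1362 was left out (1.03). C4b was at 42.9, 39.4, 32.2 and 35.5 CPM in Dounce-Input, well below the 119 to 223 CPM of Dounce-TRAP, and the log2 difference was 2.62 ± 0.33, against 0.54 ± 0.32 in Tissue. C3 had 0.15 ± 0.39 in Dounce. With the microglial list as library size, the C4b difference turned to -1.62 in Dounce and also in Cell-with-inhibitor, and to -4.10 in Tissue. The interaction with preparation called 5 genes lower without inhibitors (35.7% of genes called lower) and 5 with inhibitors (35%), from -1.90 (C3ar1) to -2.80 (C5ar1) and from -2.15 (C3ar1) to -2.92 (C5ar1). For Dounce against Tissue 2 genes were called, against 30.1% of genes in either direction, C4b with 2.08 ± 0.46 (FDR 0.000432) and C5ar1 with -1.53 ± 0.48 (FDR 0.00994). The C1q chains had interactions of -0.46 to -0.54 there, and the median of the microglial list was -0.49. Scaled to that list, C4b kept a positive interaction in Dounce (2.49), and C3ar1 turned positive without (0.43) and with (0.27) inhibitors.

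Because functional C1q needs its 3 chains in equal numbers, the ratio of the chains was compared within libraries, where library size cancels. In Tissue-TRAP, C1qb over C1qa was 1.19 to 1.39, and in Cell-TRAP 0.989 to 1.03, so that the groups did not overlap. The mean log2 ratio was 0.33 ± 0.11 (SD, n = 4) in Tissue-TRAP and 0.01 ± 0.02 in Cell-TRAP, a difference of -0.32 (two-sided exact permutation test, p = 0.0286, the smallest p that 4 against 4 allows, FDR 0.0762 over 32 comparisons). This test took the libraries as independent, although both groups came from the same 4 mice. The ratio was lower in Cell-TRAP in 4 of 4 mice, where a paired exact test could not give a p under 0.125. In Input the ratio at the mean was 1.22 in Tissue and 1.07 in Cell (difference -0.20, exact p = 0.0571, FDR 0.0962). The ratio at the mean was lower still in the TRAP fractions of sorted cells, between 0.892 (FACSAria) and 0.931 (autoMACS-to-Tyto), and the sorts differed from Cell-TRAP by -0.11 to -0.17 with FDRs of 0.0762 to 0.0962 by the exact test. Between TRAP and Input of Tissue no difference was detected (0.03, exact p = 0.686), whereas Cell-TRAP was lower than Cell-Input (-0.09, exact p = 0.0286, FDR 0.0762). With inhibitors the ratio was 0.940 against 0.929 without them in TRAP (0.02, exact p = 0.457). The ratio of C1qc to C1qa was higher in Tissue-TRAP than in Tissue-Input (0.19, exact p = 0.0571, FDR 0.0962) and lower with inhibitors than without in TRAP (-0.05, exact p = 0.0571, FDR 0.0962), again from shared mice. Of the 32 comparisons of C1qb or C1qc with C1qa, 19 had an FDR under 0.1, and 0 to 20 did with 1 library left out, where smaller groups cannot reach the threshold. These comparisons shared reference groups and C1qa as denominator. Ratios of other gene pairs were not tested, so the count cannot be read as particular to C1q. A ratio shows unequal change of the chains and not which chain changed.

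**Figure D4:**
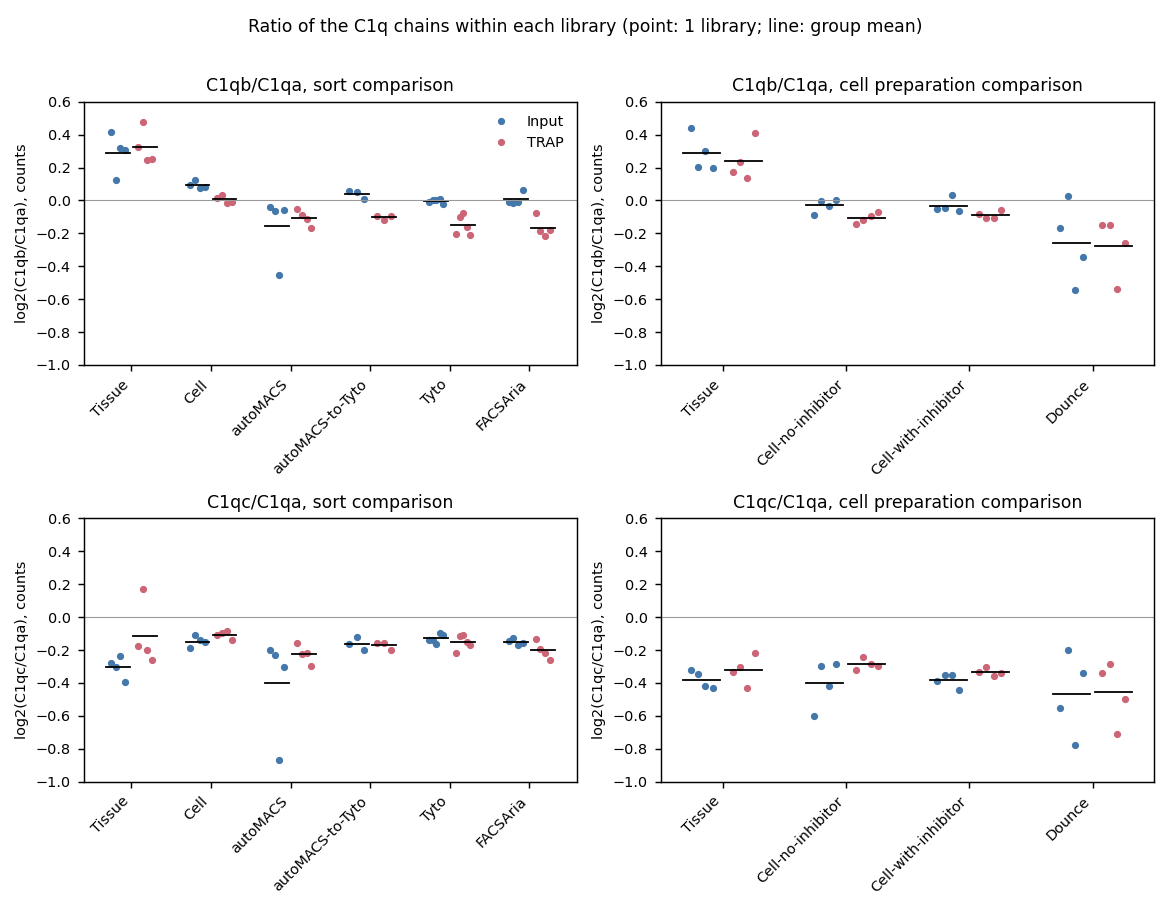
Log2 ratio of C1qb to C1qa and of C1qc to C1qa in every library of both experiments, by group, with a line at equal CPM (0). The C1qb to C1qa ratios of Tissue (group means 0.24 to 0.33) lie above those of the enzymatic suspensions, the sorted cells and Dounce (-0.27 to 0.09), and autoMACS-Input mouse 72 is lowest for C1qc to C1qa in the sort comparison (ratio 0.547).

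C3, the central component that all pathways cleave, was the most variable of the 7 genes across sorted Input libraries. It was at 13.3, 17.6, 31.8 and 44.1 CPM in autoMACS, at 31.5, 22.1, 18.9, 13.6 and 13.8 in Tyto, at 91.7, 26.1, 32.7 and 38.8 in FACSAria, and at 90.7, 29.4 and 65.4 in autoMACS-to-Tyto. The 2 highest libraries, FACSAria mouse 69 and autoMACS-to-Tyto mouse 66, also had the highest sum of a hepatocyte list (Alb, Apoa1, Apoa2, Fgb and Serpina1a), 767 and 646 CPM, against 16.6 to 204 in the other 14 sorted Input libraries. Alb, serum albumin, made up 647 and 556 CPM of these sums. This list was added after the values had been seen, because Alb was the gene whose rank pattern was most like that of C3. Without the 2 libraries the largest difference between sorts was 1.25 and C3 was no longer called by the F test (FDR 0.134). Leaving out the highest C3 values narrows the difference in any case, so this says nothing of the list. In the TRAP fractions of the same 2 mice and sorts C3 was at 17.70 and 19.04 CPM, beside list sums of 98.9 and 41.7. The part of liver-type RNA in the C3 values was not tested.

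C4b, cleaved with C2 in the classical pathway, was high together with markers of border macrophages in several libraries, though not in every group. In Cell-TRAP it was at 328 CPM in mouse 946 and at 120, 121 and 133 in the other 3 mice, while the summed border macrophage list was 2525 in mouse 946 and 990 to 1111 in the others, with Mrc1 at 978 against 341 to 388. The autoMACS-to-Tyto-TRAP library of mouse 73 had 301 CPM of C4b and 2561 of the list, and the 4 Tissue-TRAP libraries 36.4 to 43.2 of C4b and 196 to 263 of the list. These 2 libraries were the highest of the sort comparison in both C4b and the list. In Cell-with-inhibitor-TRAP, by contrast, the highest C4b (186 CPM, mouse 1362) stood beside a list of 1041. The highest list there (1293, mouse 157) stood beside 180 CPM of C4b. Without mouse 946 in Cell, the log2 difference of C4b between Cell-TRAP and Tissue-TRAP was 1.60 in place of 2.12 and was still called. In Input, mouse 1362 had the highest C4b of its groups, 266 CPM without and 231 with inhibitors against 68.9 to 105 in the other mice, and it also had the highest summed border macrophage list, 329 CPM without (170 to 215 in the other 3 mice) and 272 with inhibitors (169 to 255). Its summed astrocyte list was second lowest in both groups (8124 and 9182 CPM). Its Gfap, an astrocyte gene, was the highest, 503 CPM without (167 to 196 in the others) and 321 with inhibitors (160 to 204). Without this mouse C4b was higher than in Tissue-Input by 1.34 and 1.28. The part of these markers in C4b was not tested. C4b has a near copy, C4a, on the same strand at chr17:34809092-34823454, and 35.2% of the 50-base words of the C4b exons occur in C4a, so that some reads could be assigned to either. C4a was listed at no more than 3.31 CPM in any Input library. The 3 C1q chains shared no 50-base word.

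**Figure D5:**
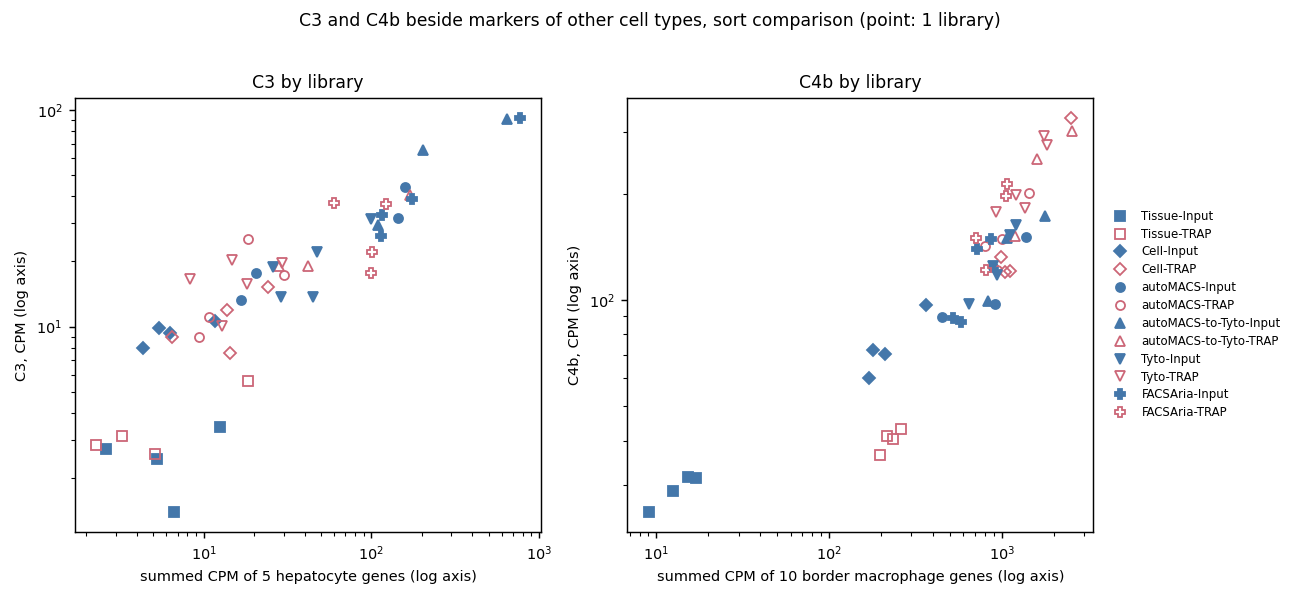
Left, C3 against the summed hepatocyte list, and right, C4b against the summed border macrophage list, in the 48 libraries of the sort comparison (CPM on log axes, 1 point per library, filled for Input and open for TRAP). FACSAria mouse 69 and autoMACS-to-Tyto mouse 66 (C3 at 91.7 and 90.7 CPM) and Cell-TRAP mouse 946 (C4b at 328 CPM) stand at the upper right.

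The rest of the complement system was read from a list of 46 further genes, of which 25 were tested in TRAP of the sort comparison. In Cell-TRAP against Tissue-TRAP, 10 of these were called higher and 2 lower (25.1% and 29.3% of all genes), with a median log2 fold change of 0.37 against -0.01 over all genes. All 7 tested receptors, C3ar1 and C5ar1 included, were called higher. Itgam, the alpha subunit of complement receptor 3, had a log2 fold change of 3.08 ± 0.09, with a mean of 260 ± 17.02 CPM in Tissue-TRAP and 2196 ± 121 in Cell-TRAP (n = 4 each), and Cd93, a C-type lectin receptor first described through C1q, 3.12 ± 0.29. Among the regulators, Cr1l was higher by 2.33 ± 0.07, while Susd4 (-4.82 ± 0.26) and Csmd1 (-3.05 ± 0.40), membrane inhibitors expressed by neurons, were lower. C2, cleaved together with C4, was higher by 2.17 ± 0.29, and Fcna, a ficolin of the lectin pathway, by 1.66 ± 0.38.

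In the TRAP fraction of sorted cells, several regulators were lower than in Cell-TRAP, and the cells these transcripts came from were not tested. Clu, the secreted chaperone clusterin, went from 241 ± 30.3 CPM (SD, n = 4) in Cell-TRAP to 1.16 ± 0.507 in Tyto-TRAP (n = 5), and its log2 difference over the 4 sorts was -6.94 ± 0.22. Susd4 (-7.01 ± 0.47), Vtn (-4.41 ± 0.27) and Csmd1 (-4.25 ± 0.44) were lower as well, and 6 of 10 regulators and 2 of 7 receptors (Vsig4 and Cd93) were called lower. In all, 1 of the 25 further genes was called higher and 8 lower over this step, against 0.836% and 23.6% of all genes. In Tissue, TRAP enriched all 7 tested receptors over Input, among them Itgam (4.40 ± 0.13) and Itgb2 (4.59 ± 0.14), the subunits of complement receptor 3, and among the regulators it enriched Cr1l (1.25 ± 0.10) and depleted Csmd1 (-1.14 ± 0.42). With inhibitors against without, none of the 22 further genes tested in TRAP was called by edgeR. In Dounce-TRAP against Cell-no-inhibitor-TRAP, 5 were called higher, among them Csmd1 (5.22 ± 0.52) and Susd4 (4.18 ± 0.40), and 3 lower, Itgax (-1.67 ± 0.27), Cfb (-1.40 ± 0.45) and Vtn (-1.22 ± 0.39), against 20.7% and 8.02% of all genes. Neuronal markers moved with Csmd1 and Susd4, since their sum was 1185 to 2322 CPM in Dounce-TRAP and 103 to 236 in Cell-no-inhibitor-TRAP, and their part was not tested.

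The genes whose group means followed each complement gene most closely were ranked over the 12 groups of the sort comparison, among 15824 genes, as Pearson correlations of log2(CPM + 1). C1qa was followed by C1qc (0.999) and Fcgr3 (0.999), C1qb by C1qc, Lyz2 and C1qa, and C1qc by Fcgr3, C1qa and C1qb. C3ar1 was nearest to P2ry13 (0.999), Nfatc1 and Fmnl3, and C5ar1 to Tnfrsf1b (0.999), Ifngr1 and Cd86. C4b was nearest to Sec23b (0.989), Pdcd6ip and Top2b, and C3, with the least close neighbours, to Slc28a2 (0.969), Ciita (0.963) and Hspa1b (0.950). With ranks in place of levels, 0 or 1 of the 3 neighbours of each gene stayed the same. The 12 groups shared mice and differed mainly in microglial content, so that these values describe a common step and say nothing of a link between the genes.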

How the data were processed

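RNA was sequenced as stranded poly(A) libraries. The authors trimmed the reads, aligned them to mm10 in Strand NGS and removed duplicates. The deposited tables hold the authors' expected counts per gene, mostly not whole and rounded here, and log2 values that the authors normalised with DESeq2 and set relative to Tissue-Input. The authors listed a gene only if all samples of some group exceeded 5 reads.

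Members and gene lists were chosen with earlier results of these data known. The same minimum was applied to the fit of each fraction. Counts were scaled by TMM and all groups entered 1 edgeR 4.0.16 quasi-likelihood fit per fraction (R 4.3.3), or a joint fit for TRAP against Input. Calls needed an FDR (Benjamini-Hochberg) below 0.1 and more than a 2-fold change. Named genes were the members, C4a, the 3 genes nearest each member, and up to 4 called genes per role of the complement list with the largest fold. A few genes that this rule names are not reported here. The scripts were tested on simulated data. DESeq2 1.42.0, limma 3.58.1, other scalings and filters, a replicate block and leaving out each library were tried. Groups that shared mice were paired by mouse number. Deviations from the group means correlated within mice at -0.188 to 0.497 between TRAP and Input, and at 0.112 to 0.520 between the inhibitor groups in TRAP. Precision was limited by the counts behind each gene and the 3 to 5 mice per group. Promoter sequences came from RefSeq.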

Additional observations from a re-analysis of the deposited data

Results flagged for a closer look

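Single libraries stood apart from the others of their group, by Dixon's test at 95%, in 15 of 126 sets of a gene and a group of 4 to 10 libraries, where chance gives about 1 in 20. The sets were not independent, since genes shared libraries and groups shared mice, so the count cannot be read as an excess. Mouse 1362 accounted for 7 of the 15. It was high with inhibitors in Input for C1qa (1466 CPM), C1qc (1149), C3ar1 (94.11) and C4b (231.1) and in TRAP for C3 (31.59), and without inhibitors for C4b in Input (265.9) and C3ar1 in TRAP (445.3). Mouse 946 was low in Cell-Input for C1qa (603.6) and C1qc (530.0) and high in Cell-TRAP for C4b (328.2). Mouse 947 was high in Tissue-Input for C1qa (69.57) and C1qc (56.41). Mouse 72 was low in autoMACS-Input for C1qb (2713) and C1qc (2029), and mouse 823 was high in Tyto-TRAP for C5ar1 (189.6).

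The enrichment by TRAP over Input differed between preparations, by the interaction test of edgeR, in 17 of 28 values. Of all genes, 35.3% were called in the sort comparison, and 38.6%, 36.9% and 30.1% in Cell-no-inhibitor, Cell-with-inhibitor and Dounce. With the microglial list as library size, C3ar1 turned positive with either enzymatic suspension and in Cell (0.22), as did C5ar1 in Cell (0.29). In the sort comparison, Cell less Tissue gave -1.92 for C1qa, -2.05 for C1qb, -2.06 for C1qc, -1.51 for C3ar1 and -1.42 for C5ar1. In the cell preparation comparison, Cell-no-inhibitor less Tissue gave -2.60 for C1qa, -2.63 for C1qb, -2.56 for C1qc, -1.90 for C3ar1 and -2.80 for C5ar1, and Cell-with-inhibitor less Tissue gave -2.63 for C1qa, -2.63 for C1qb, -2.64 for C1qc, -2.15 for C3ar1 and -2.92 for C5ar1. Dounce less Tissue gave -1.53 for C5ar1 and 2.08 for C4b.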

How the results depend on the processing

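Library size decided the direction of the C1q, C3 and C4b differences between preparations. With the summed microglial list as library size, the median of all genes lay as low as -4.64 on the log2 scale (Tissue-TRAP against Tissue-Input of the cell preparation comparison). The number of the 7 genes called, in either direction, was then 2 in Cell-Input against Tissue-Input, 1 in sorted Input against Cell-Input, 2 in each enzymatic Input of the cell preparation comparison against Tissue-Input, 0 in Dounce against Cell-no-inhibitor in Input and in TRAP, 1 in Cell-TRAP and 2 in sorted TRAP against Tissue-TRAP, 1, 0 and 2 in Cell-no-inhibitor, Cell-with-inhibitor and Dounce against Tissue in TRAP, 2 in every TRAP against Input contrast other than that of sorted cells, and 2 in the interactions of the enzymatic suspensions. The share of all genes called on this scale is not given here, so these counts cannot be read as particular to the 7 genes. On this scale, 110 values of single genes had the other sign, of which 27 were called on neither scale and the other 83 follow. Cell-Input against Tissue-Input gave -0.49 (C1qa), -0.69 (C1qb), -0.34 (C1qc), -2.31 (C3), -2.88 (C4b). Sorted Input against Cell-Input gave -0.081 (C1qa), -0.21 (C1qb), -0.15 (C1qc), -0.70 (C3), -0.17 (C5ar1), -1.88 (C4b). Input, Cell-no-inhibitor against Tissue in the cell preparation comparison gave -0.33 (C1qa), -0.65 (C1qb), -0.35 (C1qc), -3.01 (C3), -2.53 (C4b). Input, Cell-with-inhibitor against Tissue in the cell preparation comparison gave -0.41 (C1qa), -0.73 (C1qb), -0.41 (C1qc), -3.44 (C3), -2.88 (C4b). Input, Dounce against Tissue in the cell preparation comparison gave -0.73 (C1qa), -1.28 (C1qb), -0.82 (C1qc), -2.08 (C3), -2.65 (C4b). Input, Dounce against Cell-no-inhibitor in the cell preparation comparison gave 0.49 (C5ar1). TRAP, Cell against Tissue in the sort comparison gave -0.69 (C1qa), -1.004 (C1qb), -0.68 (C1qc), -0.83 (C3), -0.30 (C4b). TRAP, mean of 4 sorts against Tissue in the sort comparison gave -0.80 (C1qa), -1.25 (C1qb), -0.87 (C1qc), -0.21 (C3), -0.51 (C4b). TRAP, Cell-no-inhibitor against Tissue in the cell preparation comparison gave -0.63 (C1qa), -0.97 (C1qb), -0.60 (C1qc), -0.99 (C3), -0.21 (C4b). TRAP, Cell-with-inhibitor against Tissue in the cell preparation comparison gave -0.64 (C1qa), -0.96 (C1qb), -0.65 (C1qc), -0.95 (C3), -0.33 (C5ar1), -0.40 (C4b). TRAP, Dounce against Tissue in the cell preparation comparison gave -0.80 (C1qa), -1.32 (C1qb), -0.95 (C1qc), -1.98 (C3), -0.16 (C4b). TRAP against Input in Tissue of the sort comparison gave -3.74 (C3), -0.24 (C3ar1), -0.16 (C5ar1), -3.82 (C4b). TRAP against Input in Cell of the sort comparison gave -0.077 (C1qb), -2.26 (C3), -0.024 (C3ar1), -1.24 (C4b). The interaction (Cell less Tissue) in the sort comparison gave 1.48 (C3), 0.22 (C3ar1), 0.29 (C5ar1). TRAP against Input in Tissue of the cell preparation comparison gave -4.24 (C3), -0.35 (C3ar1), -4.10 (C4b). TRAP against Input in Cell-no-inhibitor of the cell preparation comparison gave -0.10 (C1qa), -0.18 (C1qb), -2.22 (C3), -1.78 (C4b). TRAP against Input in Cell-with-inhibitor of the cell preparation comparison gave -0.023 (C1qa), -0.081 (C1qb), -1.74 (C3), -0.084 (C3ar1), -0.029 (C5ar1), -1.62 (C4b). TRAP against Input in Dounce of the cell preparation comparison gave -4.14 (C3), -0.68 (C5ar1), -1.62 (C4b). The interaction (Cell-no-inhibitor less Tissue) in the cell preparation comparison gave 2.02 (C3), 0.43 (C3ar1). The interaction (Cell-with-inhibitor less Tissue) in the cell preparation comparison gave 0.27 (C3ar1).

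The other settings moved calls of C3 in the main. DESeq2 and the replicate block each called 1 gene, C3, between autoMACS-to-Tyto and autoMACS in Input (1.19, adjusted p = 0.0792, and 1.35, adjusted p = 0.0517), as did a minimum of 10 counts (1.19), and DESeq2 called 1, C3, between FACSAria and Tyto in Input. The replicate block, used because groups shared mice, called 1 gene, C3, between autoMACS-to-Tyto and autoMACS in TRAP (1.05). Fitted on only the groups compared, 1 gene, C3, was called in sorted TRAP against Cell-TRAP (1.001). A minimum of 10 counts called 0 in Dounce-TRAP against Cell-no-inhibitor-TRAP and 1 in the interaction of Dounce with Tissue, where C5ar1 did not reach that minimum. Leaving out both libraries highest in the hepatocyte list, a choice made after seeing the data, left 0 called by the F test in Input. With limma on the deposited normalised values, C4b was no longer called between Cell-TRAP and Cell-Input (0.90). The cause of these changes was not tested. Replicates left out in turn gave 0 to 1 called genes, with C3 the gene, in autoMACS-to-Tyto against autoMACS (1 in Input without autoMACS mouse 73, 1.59, and in TRAP without autoMACS mouse 72, 1.06), in sorted TRAP against Cell-TRAP (1 without Cell mouse 946, 1.17), in the F test in TRAP (1 without FACSAria mouse 69, 1.03, or autoMACS mouse 72, 1.19) and in Dounce-TRAP against Cell-no-inhibitor-TRAP (0 without mouse 1362, 179 or 181, -0.997 to -0.82). They gave 6 to 7 in Cell-with-inhibitor-Input against Tissue-Input (C3 without mouse 1362, 0.83), 5 to 6 in TRAP against Input of Cell-with-inhibitor (C4b without mouse 1362, 1.03) and 0 to 20 in the chain ratios, where smaller groups cannot reach the threshold. Ranks in place of levels kept 0 of the 3 nearest genes of C1qa, C3, C3ar1 and C5ar1 and 1 of those of C1qb, C1qc and C4b. No other call of the 7 genes changed under DESeq2, DESeq2's size factors, no filter, limma, the replicate block or the counts of the earlier table. Depth limited C3, which rested on 13 to 61 counts in Dounce-TRAP.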
